A study of Homo sapiens with 9 samples.

Results

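Peaks at 3 gene clusters were described in 786-O cells: the array of 5S ribosomal RNA genes on chromosome 1, a transfer RNA (tRNA) cluster on the same chromosome, and the tRNA and histone clusters on chromosome 6. 786-O is an established line from a human renal cell carcinoma of the clear cell type. Binding was measured by chromatin immunoprecipitation sequencing (ChIP-seq), which lists as peaks the places where precipitated fragments outnumber a local background. A peak was taken as a member when its summit lay in an hg19 window of 42 kb over the 5S array, of 240 kb over the chromosome 1 tRNA cluster, or from 26000000 to 29000000 on chromosome 6. Members of the 5S array lay between 228744171 and 228782829, and those of the chromosome 1 tRNA cluster between 161369246 and 161582838. Of 60345 peaks in 5 lists, 340 were members: 90 in the 5S array, 24 in the chromosome 1 tRNA cluster and 226 in the chromosome 6 window.

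The lists came from TEAD in XMU-MP-1 treated cells (193 members of 23460 peaks), p65 in XMU-MP-1 treated cells (22 of 1649) and p65 in vehicle cells (51 of 17958), and from p65 in cells with an siRNA named siTEAD4 (22 of 1813) and p65 in control cells (52 of 15465). XMU-MP-1 inhibits the Hippo kinases MST1 and MST2, and the labels give neither its dose nor the duration of treatment. All libraries are from the same line, which is a single model, and which member of the TEAD family was precipitated is not in the labels. The peak identifiers in the siTEAD4 list carry the name p65_Vert instead of the label's name, and its treatment field reads siTEAD, so it is called "labelled siTEAD4". With 1 library each, differences between lists are given without a replicate check and without p-values. The windows were chosen by the numbers and folds of peaks already seen there in these lists. The counts and folds of peaks per window, and the shares kept between p65 lists, are therefore a description only. So are the shares of overlap between TEAD and p65 peaks, which these counts limit.

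5S ribosomal RNA and tRNAs are transcribed by RNA polymerase III from promoters that lie mostly inside the genes, read by TFIIIA at 5S genes and by TFIIIC at the A and B boxes of tRNA genes. The 5S genes stand as tandem copies with a spacer between them. Replication-dependent histone genes, transcribed by RNA polymerase II in S phase, share the chromosome 6 region with many tRNA genes. TEAD proteins bind DNA as partners of the coactivator YAP, and p65 (RELA) is a DNA-binding subunit of NF-κB. Neither is a core polymerase III factor. The RefSeq annotation of another build, GRCh38, lists 443 nuclear tRNA genes, of which 155 are on chromosome 6 and 98 on chromosome 1. It also lists 55 replication-dependent histone gene symbols on chromosome 6. No genome or annotation of hg19 was used here, so no member was assigned to a single gene.

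In the 5S array TEAD and p65 both formed regular rows of peaks with close to the same spacing, but at different places in the repeat. The array held 17 TEAD peaks, 17 p65 peaks of the XMU-MP-1 list and 18 p65 peaks of the vehicle list. It held 18 p65 peaks of the list labelled siTEAD4 and 20 of the control list. No list had another peak within 182 kb of the array on either side. Because the repeats are near-identical, a read can match several of them, and how such reads were placed is not given in the sources used here. The value of a single repeat is therefore uncertain.

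TEAD peaks of the array were strong, and 13 of the 17 were of similar strength. The fold is the deposited ratio of summit signal to a local background, and the library behind that background is not given in these sources. It had a lowest value of 10.6, a median of 30.2 and a highest value of 33.6, against a median of 6.27 over the whole TEAD list. Of the 17 peaks, 15 (88.2%, 95% Wilson interval 65.7 to 96.7) were in the top 10% of the TEAD list by fold, where 10.0% of all peaks are. The strongest lay from 228765987 to 228766448 on chromosome 1, and the weakest from 228763856 to 228764252. These are neighbours in the array. The other low values were 12.98, 16.4 and 17.9, and the remaining repeats had folds of 25.7 or more.

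The p65 folds in the array had lower medians than the TEAD folds and differed by list. TEAD had the higher fold in 15 of 15 repeats shared with the XMU-MP-1 list and in 15 of 17 shared with vehicle. The lists differ in target protein and local background, so this order does not rank the amounts bound. The 17 folds of the XMU-MP-1 list ran from 4.17 through a median of 6.12 to 10.8, near the list median of 5.96. In the vehicle list the 18 peaks ran from 5.10 through a median of 16.2 to 23.3, against a list median of 5.87. The strongest XMU-MP-1 peak lay from 228746512 to 228746992 and the weakest from 228753355 to 228753626, and in vehicle cells they lay from 228748716 to 228749538 and from 228782272 to 228782528. In these lists 2 of 17 peaks (11.8%, 3.29 to 34.3) and 16 of 18 peaks (88.9%, 67.2 to 96.9) were in the top 10% of their list, where 10.0% of each list lies. Array peaks were thus among the stronger p65 peaks of vehicle cells, and of ordinary strength in the short XMU-MP-1 list.

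The other pair of p65 lists showed the same order. In the list labelled siTEAD4 the 18 folds ran from 3.16 through a median of 6.13 to 10.1, against a list median of 5.37, with the strongest from 228757793 to 228758335. In the control list the 20 folds ran from 3.85 through a median of 14.2 to 29.9, against a list median of 5.98. The highest of these, from 228744171 to 228744970, was at the first p65 position, before the first TEAD peak. Of the control peaks 13 of 20 (65%, 43.3 to 81.9) were in the top 10% of their list, where 10.0% of all peaks lie. Of the peaks labelled siTEAD4 it was 1 of 18 (5.56%, 0.988 to 25.8), where 9.98% of the list lies.

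**Figure D1:**
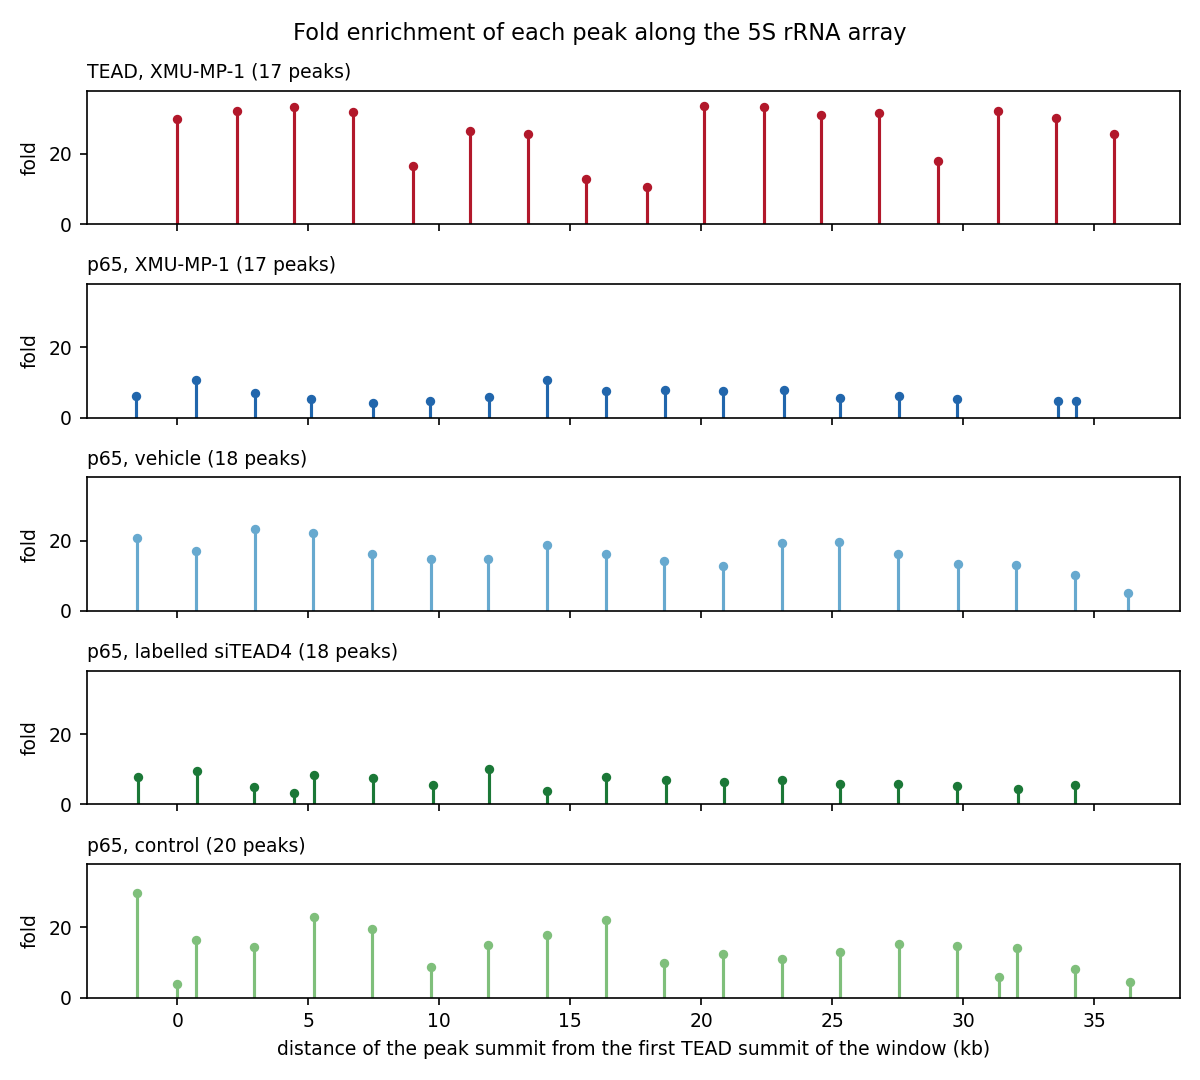
Fold enrichment over the local background (vertical axis) for each peak of the 5S array, against the distance of its summit from the first TEAD summit in kb (horizontal axis), with 1 panel per list and 1 point per peak. The 17 TEAD peaks reach folds of 10.6 to 33.6, and most p65 peaks stand at other distances than the TEAD peaks.

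At the level of fragments, these folds rested on high counts at the summit and a slightly raised background. At the TEAD summits of the array a median of 96.0 fragments piled up, with a range of 31 to 142, where the whole list had a median of 18. The local background at these summits had a median of 2.28 fragments, with a range of 1.89 to 6.86, against 1.87 in the whole list. The 2 highest backgrounds after the maximum, both 4.37, and the maximum itself stood at 3 of the 4 TEAD repeats with low folds. The repeat with the lowest fold, at 31 fragments, had a background of 2.03. For p65 the median backgrounds in the array, on the scale on which each list was called, were 4.49 in XMU-MP-1 and 2.66 in vehicle cells, against list medians of 3.21 and 2.13. In the list labelled siTEAD4 and the control list they were 5.17 and 3, against list medians of 4.40 and 2.41. The part of the background in the folds of single repeats was not tested.

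The spacing of the rows was close to equal in all lists. Adjacent TEAD summits were 2161 to 2318 bp apart, with a median of 2238.5 bp and an SD of 47.3 bp over 16 spacings. The median spacing was 2236.5 bp in the p65 XMU-MP-1 list and 2235 bp in the vehicle list. It was 2237 bp in the list labelled siTEAD4 and 2228 bp in the control list. These medians differ from each other by less than the SD of the TEAD spacings. In the main p65 rows, set by position in the repeat, the XMU-MP-1 list skipped 1 repeat. A straight line through the 17 TEAD summits had a slope of 2235.6 bp per repeat, and the summits scattered around it with an SD of 30.6 bp.

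The annotation of GRCh38 carries the same count as the TEAD row and a period close to that of all rows. The main p65 rows of the vehicle and control lists had 18 peaks each. RefSeq lists 17 RNA5S genes on chromosome 1, each 121 bp long, with neighbouring starts 2215 to 2242 bp apart and a median of 2241 bp. From the first to the last gene start are 35772 bp, and from the first to the last TEAD summit in hg19 35762 bp. These are distances within each build, and the period alone does not place a summit inside a repeat.

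Within the repeat, most p65 summits lay apart from the TEAD summits. Over all p65 array peaks, 16 of 17 in the XMU-MP-1 list and 18 of 18 in the vehicle list lay more than 200 bp from the TEAD line. In the list labelled siTEAD4 it was 17 of 18, and in the control list 18 of 20. These peaks form the main p65 row, taken as the summits within 400 bp of the median position of a list. Measured from the TEAD line, the p65 summits of the main row had a median position of 718 bp in XMU-MP-1 cells (range 648 to 807, 16 peaks) and of 716 bp in vehicle cells (535 to 745, 18 peaks). In the list labelled siTEAD4 the median was 738 bp (691 to 806, 17 peaks) and in the control list 711 bp (603 to 743, 18 peaks). The TEAD summits themselves lay within 54 bp of the line. The ranges of the 4 p65 rows overlap each other. Read in the other direction, the preceding p65 summit was a median of 1500.5 bp before a TEAD summit in XMU-MP-1 cells and 1518 bp in vehicle cells.

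A minority of p65 peaks stood at the TEAD position instead. They were 1 peak in the XMU-MP-1 list, none in the vehicle list, 1 in the list labelled siTEAD4 and 2 in the control list, all within 103 bp of the TEAD line. Their folds were low: 4.72 in XMU-MP-1 cells (228779638 to 228779868), 3.16 in the list labelled siTEAD4 (228750458 to 228750674), and 3.85 (228746044 to 228746228) and 5.82 (228777282 to 228777524) in the control list. In each list a p65 peak of the main row was also called in the same repeat, 671 bp away in XMU-MP-1 cells. These peaks are the exception to the separation of the rows.

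**Figure D2:**
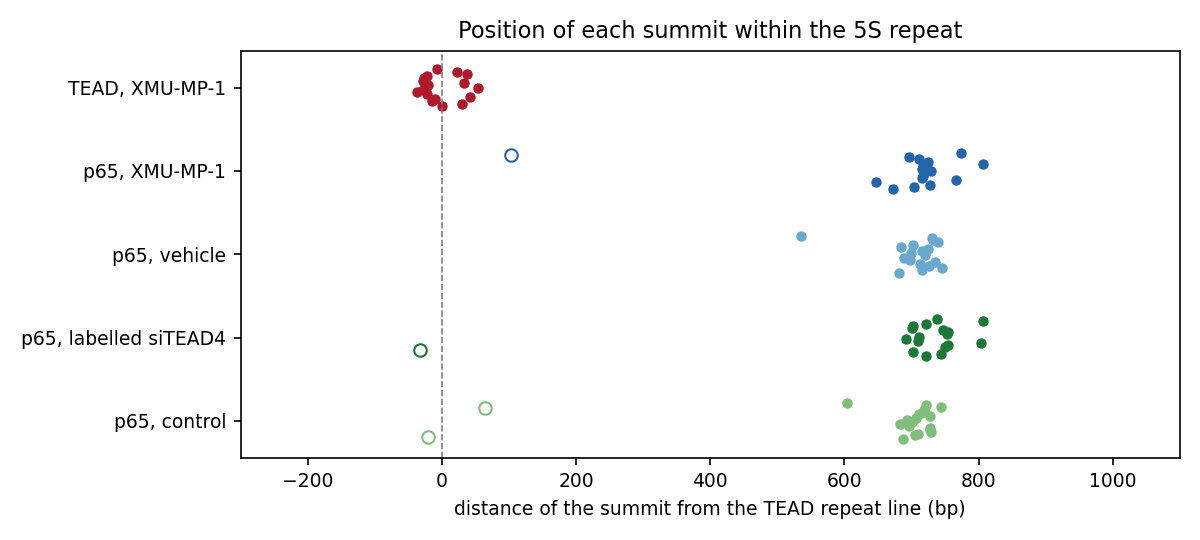
Distance of each summit of the 5S array from the line through the TEAD summits, in bp (horizontal axis), by list (vertical axis; the spread within a list is for visibility only). Filled points are the main row of each list, and open points are the p65 peaks outside it. The main p65 rows lie between 535 and 807 bp, apart from the TEAD summits within 54 bp of 0.

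The share of TEAD array peaks with a p65 peak was near that of the TEAD list for both treated p65 lists, and none overlapped a vehicle peak. Of the 17 TEAD peaks, 1 was overlapped by an XMU-MP-1 p65 peak (5.26% of the TEAD list), none by a vehicle peak (34.5%), 1 by a peak labelled siTEAD4 (5.50%) and 4 by a control peak (30.9%). Any p65 list had a peak at 5 of the 17 (29.4%, 13.3 to 53.1), against 39.7% of the TEAD list. From the side of p65 the shares in the array were lower than those of the whole lists. In XMU-MP-1 cells, 1 of 17 p65 array peaks (5.88%, 1.05 to 27.0) overlapped a TEAD peak by at least 1 bp, where 75.2% of all p65 XMU-MP-1 peaks did. In the vehicle list it was 0 of 18 against 45.6%, in the list labelled siTEAD4 1 of 18 (5.56%, 0.988 to 25.8) against 71.6%, and in the control list 4 of 20 (20%, 8.07 to 41.6) against 47.4%. Of the 4 control peaks, 2 were those at the TEAD position, and 2 were long peaks of the main row, of 1183 and 918 bp, whose summits were 710 and 722 bp from the TEAD line. The intervals cover the counting of peaks only, and array peaks share near-identical sequence, so they are not independent sites. The TEAD list is from XMU-MP-1 cells, so overlaps with the other p65 lists compare different treatments.

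The array kept its p65 peaks where most of the list lost theirs. The array was chosen with its peaks in all lists known, so the kept shares describe it and are not a test. Of the 18 vehicle peaks in the array, 16 (88.9%, 67.2 to 96.9) were overlapped by an XMU-MP-1 p65 peak, and 8.77% of all vehicle peaks were. Of the 20 control peaks, 17 (85.0%, 64.0 to 94.8) were overlapped by a peak labelled siTEAD4, and 11.2% of all control peaks were. The kept share was higher among strong peaks of the whole lists, and many array peaks were strong. Among peaks in the top 10% of the vehicle list, 15 of 16 array peaks were kept in XMU-MP-1 cells (93.8%, 71.7 to 98.9), with 46.6% over the whole top 10%. Among the top 10% of the control list it was 13 of 13 array peaks, with 57.5% over the whole top 10%.

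The 4 p65 lists named largely the same array positions. Of the 17 XMU-MP-1 array peaks, 16 were overlapped by a vehicle peak (95.7% of the whole list), 16 by a peak labelled siTEAD4 (72.3%) and 17 by a control peak (95.5%). Of the 18 array peaks labelled siTEAD4, 16 were overlapped by an XMU-MP-1 peak (66.0% of the whole list), 17 by a vehicle peak (97.4%) and 17 by a control peak (96.3%). Nearly all array peaks of these short lists were thus in the long lists too, as were nearly all their other peaks. Of the long lists, 17 of 18 vehicle array peaks were overlapped by a peak labelled siTEAD4 (9.77% of the whole list) and 16 of 20 control array peaks by an XMU-MP-1 peak (10.2%). All 18 vehicle array peaks were also control peaks (68.5% of the vehicle list), and 18 of 20 control array peaks were vehicle peaks (79.5% of the control list).

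The summits of kept array peaks stayed in place. An XMU-MP-1 summit of the main row was a median of 19.5 bp (2 to 82) from the nearest vehicle summit, and a summit labelled siTEAD4 19 bp (2 to 77) from the nearest control summit. The deposited fold was lower in XMU-MP-1 than in vehicle cells in 16 of 16 repeats with both, with a median of 0.398 times the vehicle fold (0.236 to 0.635). It was lower in the list labelled siTEAD4 than in the control list in 17 of 17 repeats, with a median of 0.387 times the control fold (0.214 to 0.689). Backgrounds and scales differ between libraries, so these ratios do not measure a change in bound p65. The repeats are near-identical and each list is from 1 library, so the repeats are not independent observations. The 2 vehicle peaks with no XMU-MP-1 peak were at the last repeat (228782272 to 228782528, fold 5.10) and 2 repeats before it (228777976 to 228778243, fold 13.2).

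With array peaks kept and most others lost, the array made up a larger share of the treated p65 lists. It held 1.03% (0.645 to 1.64) of the XMU-MP-1 list and 0.1002% (0.0634 to 0.158) of the vehicle list. It held 0.993% (0.629 to 1.56) of the list labelled siTEAD4 and 0.129% (0.0837 to 0.1997) of the control list. The TEAD list had 0.0725% (0.0452 to 0.116) of its peaks there. The number of peaks was 17 to 20 in every list, while the length of the p65 lists ranged from 1649 to 17958 peaks.

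In the tRNA cluster on chromosome 1, TEAD was called at 22 sites and p65 at 1. The XMU-MP-1 and the siTEAD4-labelled p65 lists held no peak there, and the vehicle and control lists 1 peak each. Of the TEAD list 0.0938% (0.0619 to 0.142) lay in this window, a density of 91.7 peaks per Mb against 7.59 per Mb over the span of the list. For vehicle p65 the density was 4.17 per Mb against 5.81, and for control p65 4.17 against 5.00. The nearest TEAD peak outside the window was 0.286 kb before its start, with a fold of 7.50, and the nearest inside had a fold of 36.4.

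TEAD folds in this cluster ran from 3.84 through a median of 16.5 to 36.4, and 12 of the 22 peaks (54.5%, 34.7 to 73.1) were in the top 10% of the list, where 10.0% of all TEAD peaks lie. The strongest peak was at 161369246 to 161369770, with 100 fragments at its summit and a fold of 36.4. The next were at 161397625 to 161398208 (fold 31.6), 161500680 to 161501314 (30.05) and 161493486 to 161493985 (27.4). None of these 4 had a p65 peak in any list. Of the top 10% of the TEAD list 58.7% had one, and of all TEAD peaks 39.7%. The window held p65 at 1 site and was chosen with that count known, so this contrast restates the count. The fifth, at 161582127 to 161582838 with a TEAD fold of 23.6, was the single site with p65, at a fold of 3.81 in vehicle and 11.5 in control cells. There the p65 summits lay 257 and 306 bp from the TEAD summit.

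Part of the cluster repeated at a near-constant distance. Among the 47 pairs of TEAD summits up to 10 kb apart, 11 were 7241 to 7427 bp apart, with a median of 7386 bp, and no other distance class of the same width held more than 5. The distance was read from these peaks. The pairs linked 15 of the 22 peaks into 4 rows, of 5, 4, 4 and 2 peaks. Folds differed between the rows: 14.3 to 21.1 in the strongest row of 4, 8.44 to 14.8 in the row of 5 and 4.07 to 10.3 in the other row of 4. The separate pair, further along, had folds of 27.4 and 30.05.

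The tRNA genes of chromosome 1 in the GRCh38 annotation include copies with a period of the same size. Neighbouring copies 5 to 10 kb apart of TRE-CTC1 (glutamate, anticodon CTC), TRG-TCC2 (glycine, TCC), TRD-GTC2 (aspartate, GTC), TRL-CAG1 (leucine, CAG) and TRG-GCC1 (glycine, GCC) had starts 7360 to 7431 bp apart. These symbols describe the annotation of another build, and no peak was matched to a tRNA gene. Peaks of 1 row may share near-identical sequence, with the same uncertainty in placing reads as in the 5S array. The local background at the TEAD summits of this cluster had a median of 3.12 fragments (1.08 to 7.48), against 1.87 over the list, and the pileup a median of 63 (7 to 120), against 18.

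**Figure D3:**
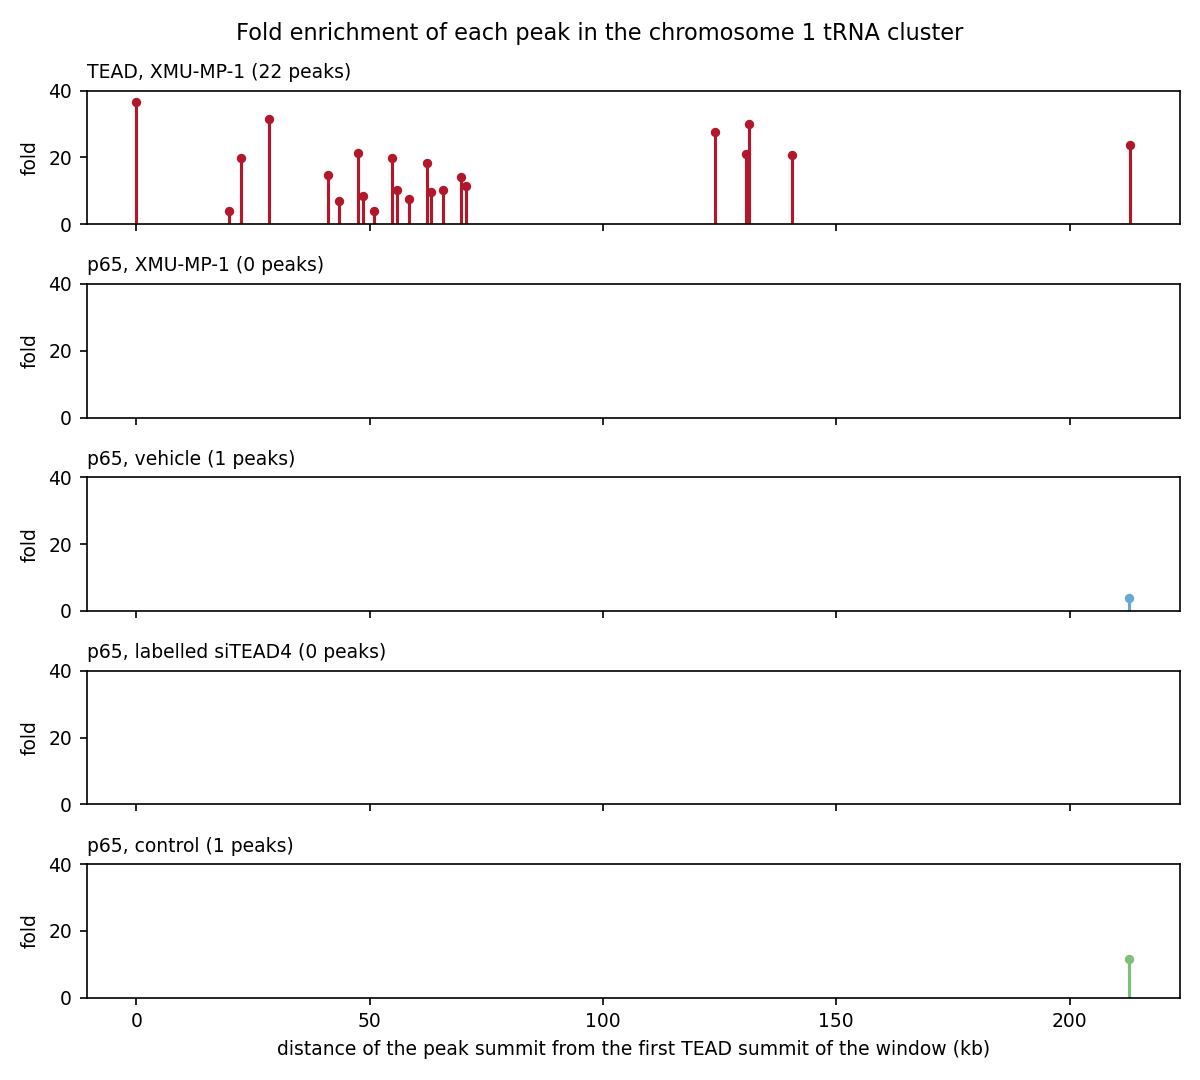
Fold enrichment (vertical axis) of each peak in the chromosome 1 tRNA cluster against the distance of its summit from the first TEAD summit in kb (horizontal axis), with 1 panel per list and 1 point per peak. TEAD has 22 peaks with folds of 3.84 to 36.4. The vehicle and control p65 lists have 1 peak each, at the same site, and the other p65 lists have none.

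The chromosome 6 window held 154 TEAD peaks, 5 p65 peaks of the XMU-MP-1 list and 32 of the vehicle list. It held 4 p65 peaks labelled siTEAD4 and 31 of the control list. For TEAD this was 0.656% (0.561 to 0.768) of the list and 51.3 peaks per Mb, 6.77 times the density over the span of the list. For p65 it was 0.303% (0.130 to 0.708) of the XMU-MP-1 list and 0.178% (0.126 to 0.251) of the vehicle list, or 3.13 and 1.84 times the density of those lists. The corresponding ratios were 2.27 for the list labelled siTEAD4, on 4 peaks, and 2.07 for the control list. Just outside the window were a TEAD peak 28.4 kb before it (fold 10.4) and a vehicle p65 peak 1.63 kb before it (fold 6.86).

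TEAD peaks came in dense groups along the 3000 kb of the window. In bins of 100 kb, 26 of 30 held a TEAD peak and 15 held at least 5, and these 15 bins held 128 of the 154 peaks. Over all chromosomes 3.02% of 30936 such bins held at least 5. The fullest bins, with 12 peaks each, were those starting at 26300001, 27500001 and 28700001. The next had 11 peaks from 26500001 and 10 from 27100001. The 4 bins without a TEAD peak started at 26600001, 26800001, 28000001 and 28200001. The most p65 peaks in a bin were 2 in the XMU-MP-1 list, 4 in the vehicle list, 1 in the list labelled siTEAD4 and 4 in the control list, from totals of 5, 32, 4 and 31 peaks in the window.

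**Figure D4:**
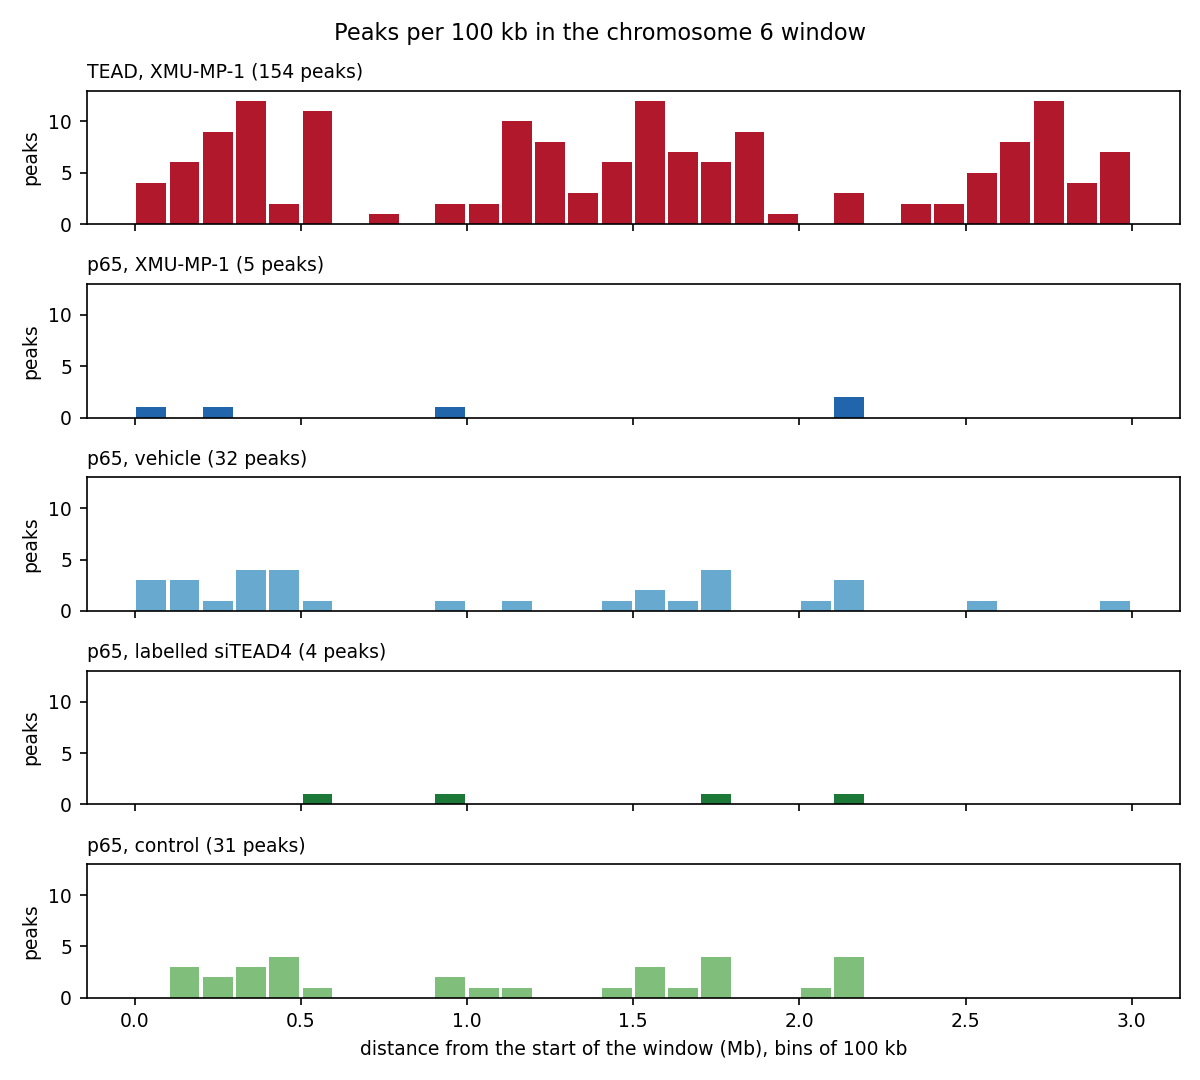
Number of peaks per bin of 100 kb (vertical axis) along the chromosome 6 window, by distance from its start in Mb (horizontal axis), with 1 panel per list. TEAD reaches 12 peaks in 3 of 30 bins, and no p65 list has more than 4 in a bin.

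Distances between TEAD neighbours in this window varied widely. The median distance from a TEAD summit to its nearest TEAD neighbour was 3.96 kb with a range of 570 to 161520 bp, against 12.01 kb over the whole list, and 120 of the 154 peaks (77.9%) had one within 10 kb, against 46.3% of all TEAD peaks. For p65 the median was 240.1 kb in XMU-MP-1 cells and 30.8 kb in vehicle cells, against 159.8 and 15.02 kb over those lists. It was 421.02 kb in the list labelled siTEAD4 and 22.5 kb in the control list, against 161.4 and 17.6 kb. Median neighbour distances were thus shorter than over the list for TEAD and longer for each p65 list. The medians of the XMU-MP-1 list and the list labelled siTEAD4 rest on 5 and 4 peaks. Each p65 list was still denser in the window than over its span, by 1.84 to 3.13 times.

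TEAD folds in the window covered a wide range, from 2.91 through a median of 12.7 to 50.3, and 71 of the 154 peaks (46.1%, 38.4 to 54.0) were in the top 10% of the list, where 10.0% of all TEAD peaks lie. The strongest was at 27720909 to 27721565, with a fold of 50.3 from 113 fragments over a background of 1.27. It was followed by peaks at 26312673 to 26313745 (fold 47.4), 28805736 to 28806512 (40.7) and 26537303 to 26538626 (40.6). Folds between 37.3 and 39.6 were found at 28863787 to 28864314, 27758902 to 27759435, 26330349 to 26330878, 28180457 to 28181093, 27198030 to 27198694 and 26556615 to 26557303. Of these 10 sites, 8 had no p65 peak in any list and 2 had one. Of the top 10% of the TEAD list 58.7% had one, and of all TEAD peaks 39.7%. The window was chosen with its few p65 peaks known, and they limit this count. The strongest TEAD site had p65 folds of 9.59 in vehicle and 12.7 in control cells, with summits 371 and 370 bp from the TEAD summit. The site from 27758902 had a peak in the list labelled siTEAD4 alone, with a fold of 5.27.

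Background at the TEAD summits of this window was close to that of the list, with a median of 2.03 fragments (1.08 to 5.61) against 1.87. The pileup had a median of 40.5 fragments (8 to 137) against 18. Peak length was 203 to 1610 bp, with a median of 462.5 bp against 350 bp over the list. Members in this window were longer and taller than the typical TEAD peak, at a similar background.

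The p65 peaks of the window were of ordinary strength. In XMU-MP-1 cells the 5 folds were 10.2, 5.52, 4.61, 4.37 and 3.65, against a list median of 5.96. In vehicle cells the 32 folds ran from 3.20 through a median of 5.26 to 18.7, against 5.87. In the list labelled siTEAD4 the 4 folds were 8.04, 6.54, 5.27 and 4.42, against 5.37. In the control list the 31 folds ran from 2.85 through a median of 6.41 to 17.2, against 5.98. The p65 members of this window reached the top 10% of their lists in 3 vehicle and 2 control peaks and in no XMU-MP-1 peak and no peak labelled siTEAD4, where 10.0% of the vehicle, control and XMU-MP-1 lists and 9.98% of the list labelled siTEAD4 lie.

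The highest p65 fold was at 1 site in vehicle and control cells. It lay from 26999095 to 26999441, with p65 folds of 5.52 in XMU-MP-1 and 18.7 in vehicle cells. In the list labelled siTEAD4 its fold was 6.54, and in the control list 17.2. It had no TEAD peak. The next vehicle peaks were at 27686793 to 27687178 (fold 17.2), 27106810 to 27107157 (14.1), 26388737 to 26389131 (10.2) and 27720755 to 27721303 (9.59). Each of these was also a control peak, and none was in the XMU-MP-1 list or the list labelled siTEAD4. TEAD was called at the last of them, which is the strongest TEAD site of the window. The next control peaks were at 27720680 to 27721370 (12.7), 26388716 to 26389035 (11.5), 27791653 to 27791923 (8.58) and 28104485 to 28104725 (7.78).

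Just 1 site of the window was called in all 5 lists, at 28134793 to 28135226 in the TEAD list. Its folds were 6.80 for TEAD, 10.2 for p65 in XMU-MP-1 and 7.99 in vehicle cells, and 8.04 in the list labelled siTEAD4 and 2.85 in the control list. It was the strongest p65 peak of the window in both treated lists, and its p65 and TEAD summits lay 6 to 40 bp apart. The site from 26999095 and this one were the only 2 with a peak in both treated lists.

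The share of p65 peaks kept in the window was close to that of the lists at large. Of the 32 vehicle peaks 3 (9.38%, 3.24 to 24.2) were overlapped by an XMU-MP-1 peak, with 8.77% over the vehicle list. Of the 31 control peaks 2 (6.45%, 1.79 to 20.7) were overlapped by a peak labelled siTEAD4, with 11.2% over the control list. In the 5S array these shares were 88.9% and 85.0%.

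The share of TEAD sites with a p65 peak was lower in the tRNA and histone clusters than over the TEAD list. This was clearest for the vehicle and control p65 lists. The chromosome 6 window held 154 TEAD peaks and 5 XMU-MP-1, 32 vehicle, 4 siTEAD4-labelled and 31 control p65 peaks. The windows were chosen with such counts known, and few p65 peaks limit the share of TEAD peaks with one. The lower share is thus a description and not a test. In the chromosome 6 window 3 of 154 TEAD peaks (1.95%, 0.665 to 5.57) had a p65 XMU-MP-1 peak and 17 (11.04%, 7.01 to 16.97) a vehicle peak, where 5.26% and 34.5% of all TEAD peaks did. For the list labelled siTEAD4 it was 3 (1.95%, 0.665 to 5.57) against 5.50%, and for the control list 15 (9.74%, 5.99 to 15.4) against 30.9%. The shares of 5.26% and 5.50% lie inside the counting intervals of the window. TEAD was precipitated in XMU-MP-1 cells, so only the XMU-MP-1 p65 list has the same treatment. Any p65 list had a peak at 22 of the 154 (14.3%, 9.63 to 20.7), against 39.7% of all TEAD peaks. In the chromosome 1 tRNA cluster it was 1 of 22 (4.55%, 0.807 to 21.8), with p65 called at 1 site of that window. From the side of p65, shares on chromosome 6 were near those of the whole vehicle and control lists. There 17 of 32 vehicle peaks (53.1%, 36.4 to 69.1) overlapped a TEAD peak, against 45.6% of the list. Of the control peaks 15 of 31 did (48.4%, 32.0 to 65.2), against 47.4%. It was 3 of 5 XMU-MP-1 peaks against 75.2%, and 3 of 4 peaks labelled siTEAD4 against 71.6%.

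Among strong TEAD peaks the gap between window and list was wider. The windows were chosen by the folds and numbers of these peaks, with many strong TEAD peaks and few p65 peaks on chromosome 6. The gap is therefore a description and not a test. Over the whole top 10% of the TEAD list, 15.4% had a p65 XMU-MP-1 peak, 52.6% a vehicle peak, 14.1% a peak labelled siTEAD4, 48.0% a control peak and 58.7% a peak of any p65 list. Of the 71 such peaks in the chromosome 6 window, none had an XMU-MP-1 peak, 3 (4.23%, 1.45 to 11.7) had a vehicle peak, 2 a peak labelled siTEAD4, 2 a control peak and 5 (7.04%, 3.05 to 15.4) a peak of any p65 list. Of the 12 in the chromosome 1 tRNA cluster, 1 had a vehicle and a control peak. The order of strength in the chromosome 6 window was opposite to that of the list. TEAD peaks there had a median fold of 8.12 with a p65 peak of any list (22 peaks) and of 14.6 without (132 peaks), and over the whole TEAD list the medians were 7.15 with and 5.92 without.

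**Figure D5:**
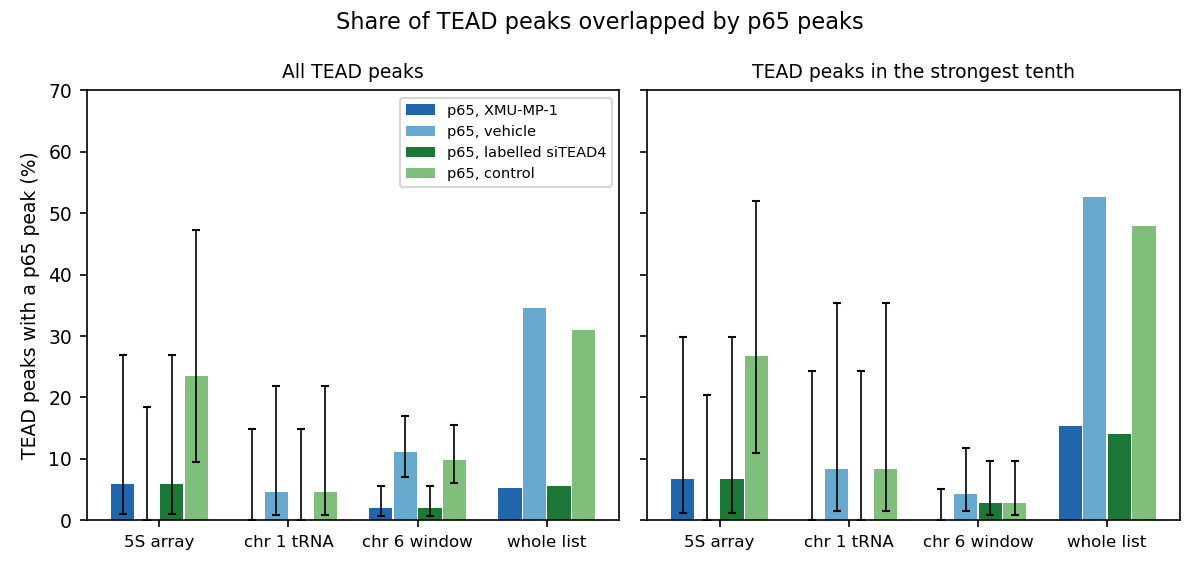
Share of TEAD peaks overlapped by a peak of each p65 list, in percent (vertical axis), in the 3 windows and in the whole TEAD list (horizontal axis), for all TEAD peaks and for the top 10% by fold. Bars are shares and lines are 95% Wilson intervals for counting only, with none drawn for the whole list. In the chromosome 6 window 11.04% of TEAD peaks have a vehicle p65 peak and 4.23% of the strongest do, against 34.5% and 52.6% in the whole list. The windows were chosen by peak numbers and folds, and few p65 peaks in a window limit its shares.

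At chromosome 6 sites where TEAD and p65 peaks overlapped, the distance between their summits varied. The 3 TEAD peaks with an XMU-MP-1 p65 peak had summits 13 to 835 bp from it, with a median of 76 bp. The 17 TEAD peaks with a vehicle p65 peak had summits 5 to 373 bp from it, with a median of 80 bp, and 10 of them lay within 100 bp. The 15 TEAD peaks with a control peak had a median of 111 bp (6 to 370), and 6 of them lay within 100 bp. The 3 with a peak labelled siTEAD4 had summits 30 to 74 bp from it. Only overlapping peaks enter these distances, so the length of the peaks limits them.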

How the data were processed

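ChIP-seq peak lists of 5 immunoprecipitates from 786-O cells were used. The 4 input libraries were not analysed here. The submitters' processing notes name fastp, Bowtie2 2.4.5, MACS2 and the build hg19. Neither the MACS2 settings nor the handling of reads with several matches is known from these sources. Each deposited list gives per peak, by the authors, a fold enrichment ratio, a −log10 p-value, a −log10 q-value, a summit position and a whole-number score, which was not used. Peak numbers within the windows were consecutive, so no numbered peak is missing there.

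Members were found by summit, and overlap means at least 1 bp. Pileup and background were solved from the deposited fold and −log10 p as MACS2 defines them (fold as pileup plus 1 over background plus 1, p as a Poisson tail, background of at least 1). Pileups were whole multiples of 0.783 in the p65 XMU-MP-1 list and of 0.587 in the control list, and whole numbers in the others. A solution to within 0.05 fragments was found for at least 99.9% of peaks in each list. The lists give no read totals. Densities use the 3092 Mb that any list reaches. A p65 summit was put in the main row of the 5S array within 400 bp of the median position. Shares carry 95% Wilson intervals for counting only. Python 3.11.15, numpy 2.4.6, pandas 2.3.3 and scipy 1.17.1 were used, and the code was tested on simulated data.

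The members, windows and the peaks to name (the 10 strongest TEAD and 5 strongest p65 peaks per list on chromosome 6, the 5 strongest on the chromosome 1 tRNA cluster, all of the 5S array by range) were chosen with earlier results of these data known. Alternatives were −log10 q limits of 5 and 10, other overlap rules and other ways to read the spacing.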

Additional observations from a re-analysis of the deposited data

How the results depend on the processing

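Across 80 alternatives, 72 gave a share inside the reported 95% interval (for spacings, a median within 1 SD) and 8 did not. Some of the 72 had little room to move, such as a share of 0 of 1 with an interval of 0 to 79.3%. The spacing SD of the main p65 XMU-MP-1 row, with 1 repeat skipped, was 599 bp. The 8 that moved all came from the stricter limit on −log10 q, 10. At that limit 0.161% of the TEAD list lay in the 5S array, 0.189% in the chromosome 1 tRNA cluster and 1.05% in the chromosome 6 window. The p65 XMU-MP-1 list had 0.127% of its peaks in the chromosome 6 window. The share of p65 XMU-MP-1 peaks with a TEAD peak was then 0% in the 5S array and, on 1 remaining peak, 0% in the chromosome 6 window, and the share of TEAD peaks with a p65 XMU-MP-1 peak was 0% in both. The limit shortens the TEAD list to 10576 peaks and the p65 XMU-MP-1 list to 787. In the 5S array the share kept at that limit was 70.6% for vehicle peaks in XMU-MP-1 cells and 82.4% for control peaks in the list labelled siTEAD4. Median 5S spacing, over all lists and ways to read it, lay between 2225 and 2259 bp; the reading from the main row alone was added after seeing the data. In the chromosome 1 tRNA cluster the p65 lists were too short for shares, and the share kept among vehicle peaks could not be computed at either q limit because no peak was left. No paired analysis was possible because there is 1 library in every condition. The lists give no read totals, so depth is unknown, and an absent peak is one not called.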
